A study of Mus musculus with 18 samples.

Results

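Hemibrains of 6 mice homozygous for human APOE2 were compared with hemibrains of 6 mice homozygous for human APOE4. These 12 libraries were taken, by the genotype in the labels, from a series of 18 that also holds 6 APOE3 mice. All mice were targeted-replacement animals on the C57bl/6 strain, in which human APOE stands in place of the mouse gene, and all were 12 months old. Each genotype had 3 females and 3 males, and each mouse gave 1 stranded polyA RNA-seq library. The labels name no colony, litter or cage. Title letters that the labels do not explain differ between the genotypes: APOE2 titles end in c or in no letter and APOE4 titles in d, e or f. Anything that goes with those letters cannot be told apart from genotype. By its title, the series asks how APOE2 bears on neuronal endosomes and exosome release in aging.

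Apolipoprotein E is the main lipid carrier of the brain. Astrocytes secrete it in lipoprotein particles, which carry cholesterol and phospholipid to neurons through receptors on the cell surface. In people, the APOE4 allele raises the risk of late-onset Alzheimer disease and the APOE2 allele lowers it.

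The APOE2 libraries held 49545646 to 59394503 counts and the APOE4 libraries 48841442 to 52761314. Neuronal marker transcripts summed to 14608 to 15974 CPM (counts scaled to library size, here by TMM) in APOE2 and 13880 to 15457 in APOE4, and the sums of astrocyte and oligodendrocyte markers also overlapped between the genotypes, as whole brain tissue holds all 3. The level of Xist and Y-linked genes matched the sex in the labels in 18 of 18 mice. The mouse Apoe entry, on chromosome 7 at 19696109 to 19699188 (GRCm38), ran from 36.2 to 42.0 CPM in APOE2 and from 40.0 to 54.2 CPM in APOE4, a difference that was not called (adjusted p = 0.0987, edgeR). That entry counts alignments to the mouse genome, so it checks neither the human transcript nor the isoform. On the first principal component of the 12 libraries, with 33.6% of the variance, the APOE2 mice lay between -28.2 and -18.7 and the APOE4 mice between 20.9 and 28.6. The second (16%) separated the sexes, with the 6 females between 8.45 and 23.4 and the 6 males between -20.8 and -9.48. APOE4 replicate 5 stood apart in pituitary transcripts, with 132 CPM of growth hormone (Gh) against 0 to 13.8 CPM in the other APOE4 mice. Without it the number of called genes rose from 1218 to 1859.

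In the test across all genes, 1218 of 19352 genes (6.29%) were called, meaning a Benjamini-Hochberg adjusted p under 0.05 in edgeR's quasi-likelihood test. Of these, 568 (2.94%) were higher and 650 (3.36%) were lower in APOE2. Most differences were small: the median size among called genes was 0.40 on the log2 scale, 382 were under 1.2-fold and 253 were over 2-fold. In 291 genes (1.50%) all 6 APOE2 mice lay above all 6 APOE4 mice, and in 369 (1.91%) all lay below. The largest changes named by rule are the 12 increases and 12 decreases with the greatest fitted fold. They were taken from called genes of at least 1 CPM, predicted genes left out. In all 24 the groups did not overlap, but a choice by fold in these same data favours such genes. The plot of CPM by mouse for leading genes gives the levels behind these folds. Differences with their standard error (SE) are log2 fold changes, APOE2 minus APOE4, and those in parentheses after CPM values are the same. APOE3 levels are given beside some of the genes only, and as values alone, since comparisons with APOE3 share libraries with this one.

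**Figure D1:**
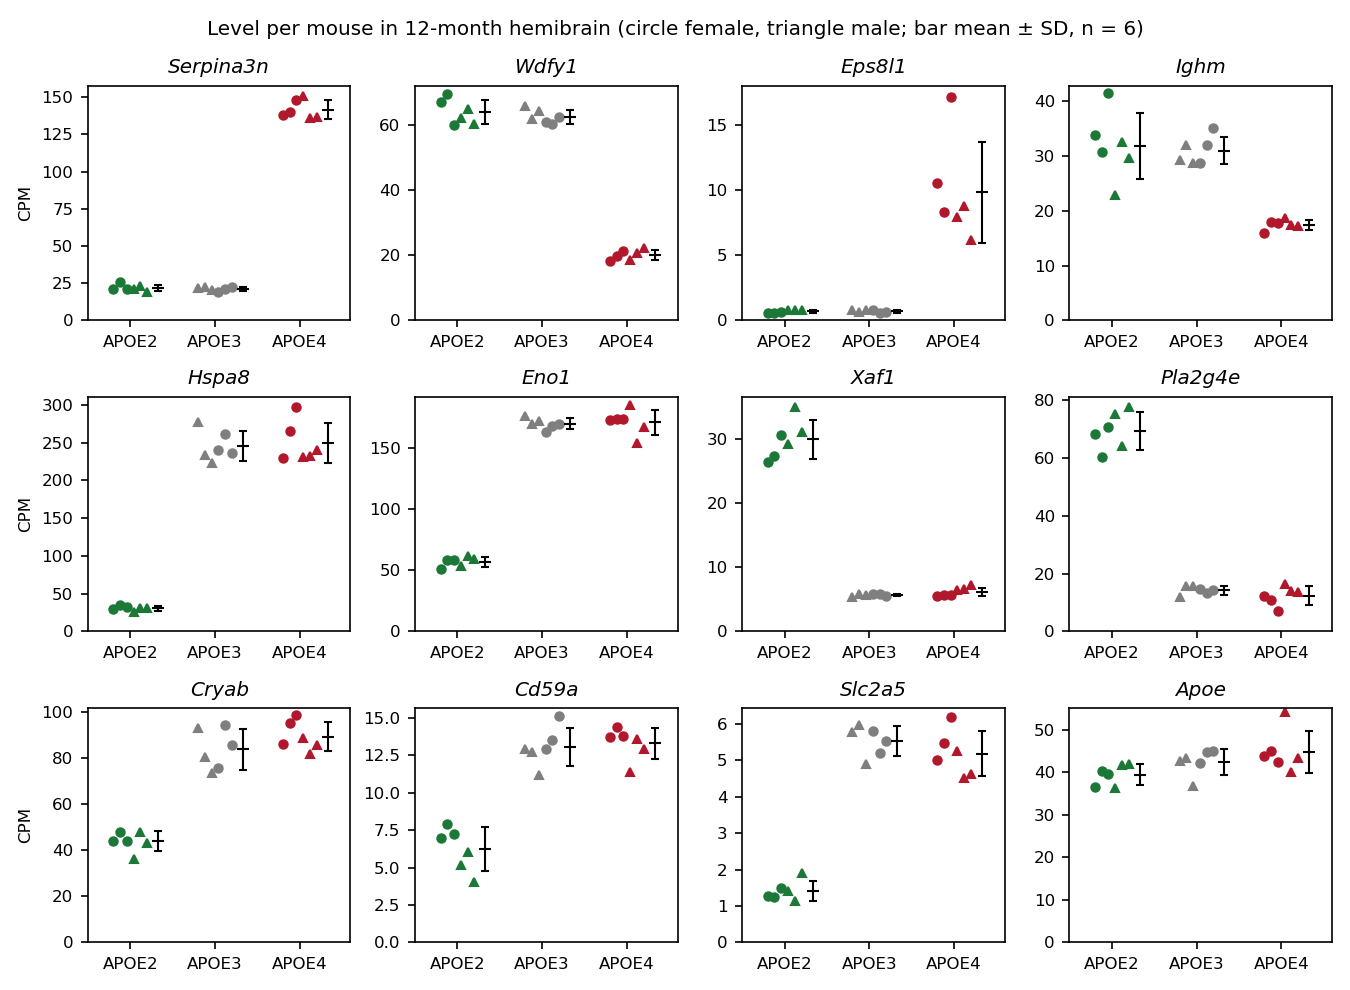
CPM in each mouse (circles females, triangles males, axes from 0) for 11 genes called between APOE2 and APOE4 and for Apoe, by genotype, with bars at the mean ± SD (n = 6). Serpina3n, Wdfy1 and Eps8l1 have APOE3 mice at the APOE2 level, and Hspa8, Xaf1 and Pla2g4e have APOE3 mice at the APOE4 level.

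Serpina3n had the smallest p of all genes lower in APOE2. It encodes a secreted inhibitor of serine proteases that reactive astrocytes and oligodendrocytes make. In APOE2 it ran from 19.3 to 25.6 CPM (median 21.3), and in APOE4 from 136 to 151 CPM (median 139). The 12 mice did not overlap, and the level was 6.46-fold higher in APOE4 (log2 difference -2.69, SE 0.06, adjusted p = 6.55e-20). APOE3 mice stood at 21.3 ± 1.27 CPM (SD, n = 6), which is the APOE2 level. The gene lies on chromosome 12 at 104406729 to 104414329, in a cluster of related inhibitors, and 5 of 6 measured members of the Serpina3 family were called, all lower in APOE2, beside 3.36% of all genes. Serpina3f had 19 reads over the 6 APOE2 mice and 1420 over the 6 APOE4 mice, a ratio of 77.6 (95% interval 49.5 to 129, counting error only). Serpina3m had 1 read against 1225, a ratio of 1272 (interval 228 to 50294). Serpina3k had 0 reads against 199, at least 68.9-fold lower if the APOE2 group is given 3 reads in all. The annotated Serpina3k lies within Serpina3m, so the split of reads between these entries is uncertain. Serpina3f is 92.2% identical to Serpina3h over 1219 aligned bases, and Serpina3h had 14 reads in APOE2 and 24 in APOE4. Summed with Serpina3h, the log2 fold change of Serpina3f was -5.48 (SE 0.17, adjusted p = 3.55e-17).

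In Wdfy1 the APOE4 mice were low and the other genotypes alike. Its protein binds phosphatidylinositol 3-phosphate on early endosomes through a FYVE domain and acts in Toll-like receptor signalling. The level ran from 60.0 to 69.3 CPM in APOE2 (median 63.4) and from 18.2 to 22.2 CPM in APOE4 (median 20.3). The groups did not overlap and the level was 3.18-fold higher in APOE2 (a log2 difference of 1.67, SE 0.05, adjusted p = 3.91e-17). APOE3 mice were at the APOE2 level, with 62.5 ± 2.14 CPM. A level in APOE4 apart from the other genotypes was also seen at the start of chromosome 7. Eps8l1, an actin regulator related to the EGF receptor substrate Eps8, ran from 0.550 to 0.829 CPM in APOE2 and from 6.18 to 17.2 CPM in APOE4 (log2 difference -3.78, SE 0.21). Ptprh, a receptor tyrosine phosphatase, ran from 0.156 to 0.404 CPM against 1.93 to 2.70 CPM (-3.30, SE 0.20). Tnnt1, the slow troponin T that also marks thalamus, lies between them and ran from 4.03 to 7.92 CPM against 7.24 to 9.56 CPM (-0.63, SE 0.11, adjusted p = 6.80e-04), with APOE3 mice at 5.06 ± 0.317 CPM. Those 3 genes lie within chromosome 7 from 4460674 to 4604041, on the chromosome that carries Apoe.

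Immunoglobulin constant regions also separated the genotypes, at low levels. Immunoglobulin transcripts come from B cells and plasma cells, which are rare in brain. Ighg2c, the constant region of IgG2c, ran from 3.61 to 7.71 CPM in APOE2 and from 0.0379 to 0.132 CPM in APOE4 (log2 difference 5.83, SE 0.26), and APOE3 mice stood at 4.44 ± 0.322 CPM. Ighm, the IgM heavy chain, ran from 22.8 to 41.5 CPM (median 31.6) against 15.9 to 18.6 CPM (median 17.7; 0.86, SE 0.09, adjusted p = 8.18e-07), with APOE3 mice at 31.0 ± 2.50 CPM. Neither gene overlapped between APOE2 and APOE4. The kappa light chain Igkc ran from 1.45 to 6.03 CPM against 0.610 to 1.27 CPM (1.55, SE 0.31, adjusted p = 0.00332), and here APOE3 mice, at 0.783 ± 0.109 CPM, were at the APOE4 level. Igha was called higher as well (1.39, SE 0.30), and Ighd, the IgD heavy chain, was called lower (-0.90, SE 0.21). In all, 5 of 11 measured immunoglobulin and B cell genes were called, 4 higher and 1 lower, beside 6.29% of all genes. These calls are not at separate loci. Ighg2c, Ighm, Igha and Ighd lie together on chromosome 12, from 113254830 to 113422730, and Igkc lies on chromosome 6. Ighd was chosen after its values were seen.

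Among genes in which APOE2 stood apart from both other genotypes, Hspa8 was the most strongly called named decrease. It encodes HSC70, the constitutive chaperone that strips clathrin from coated vesicles and feeds substrates to lysosomes. Hspa8 (chromosome 9, 40800984 to 40810087) ran from 25.4 to 35.6 CPM in APOE2 (median 31.1) and from 230 to 297 CPM in APOE4 (median 237), with no overlap (log2 difference -3.02, SE 0.07, adjusted p = 2.27e-18). APOE3 mice ran from 223 to 278 CPM. The level is uncertain because of a processed pseudogene, Gm15459 on chromosome 5, which ran from 98.1 to 118 CPM in APOE2 and from 0.442 to 0.685 CPM in APOE4. Over 1941 aligned bases the pseudogene differs from the Hspa8 coding sequence at 5 bases (99.7% identity), and 86.8% of its windows of 50 bases are identical to Hspa8. A stretch of 60 bases (bases 60 to 119 of the coding sequence) shows how little separates them, with the base that differs in capitals. The pseudogene stretch is chr5:5783437-5783496 on the minus strand of GRCm38.
Hspa8: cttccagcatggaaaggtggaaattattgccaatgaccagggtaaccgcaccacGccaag
Gm15459: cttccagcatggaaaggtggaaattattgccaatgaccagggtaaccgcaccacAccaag
The pseudogene took 77.9% of the summed level in APOE2 and 0.230% in APOE4. Summed over both entries, the level was 139 CPM in APOE2, 250 CPM in APOE4 and 246 CPM in APOE3 (log2 fold change -0.85, SE 0.06, adjusted p = 3.92e-10). Gm15459 is a predicted gene, and it was chosen after its values were seen.

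Copies were also higher in APOE2 than in APOE4 at other genes, and the plot of gene and copy levels sets Eno1, Eif3j1 and Nudc beside Hspa8. Eno1, the alpha-enolase of glycolysis, ran from 50.8 to 62.0 CPM in APOE2 and from 154 to 185 CPM in APOE4 (log2 difference -1.59, SE 0.05). Its retrocopy Eno1b ran from 10.5 to 12.8 CPM against 0.0377 to 0.286 CPM (6.32, SE 0.23). Summed with Eno1b and the pseudogene Gm5855, the log2 fold change was -1.19 (SE 0.05, adjusted p = 1.78e-14), so the sum was lower in APOE2 too. Of the windows of 50 bases in Eno1b, 75.3% are identical to Eno1. How reads that match a gene and its copy alike were counted was not tested, here or for Hspa8. The sums of genes and copies therefore do not settle the levels. For the translation initiation factor subunit Eif3j1 the log2 fold change was -2.50 (SE 0.09) and for its copy Eif3j2 it was 5.69 (SE 0.25), whereas their sum differed by -0.31 (SE 0.07, adjusted p = 0.0120). Nudc-ps1, a pseudogene of the dynein partner Nudc, had 3.46 (SE 0.16), and summed with Nudc 0.25 (SE 0.05, adjusted p = 0.00122). Eif5al3-ps, a pseudogene of the translation factor gene Eif5a, had 5.83 (SE 0.26), and summed with Eif5a and Gm14016 -0.04 (SE 0.05, adjusted p = 0.650), which was not called. Zfp990, a zinc finger gene of a repeated family on chromosome 4, had 747 reads in APOE2 and 12 in APOE4, a ratio of 59.9 (95% interval 34.1 to 117), and summed over its family the log2 fold change was 1.32 (SE 0.15). Erdr1, a gene of the pseudoautosomal region with no single position in the annotation, had 1 read in APOE2 and 1450 in APOE4, a ratio of 1506 (interval 270 to 59524), and 206 reads in APOE3.

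**Figure D2:**
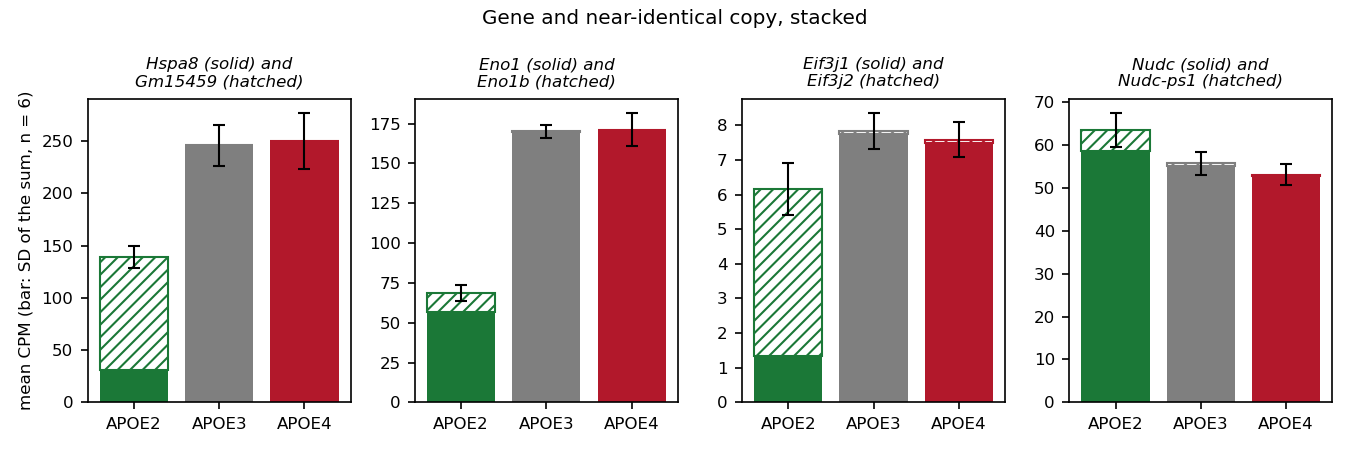
Mean CPM of 4 genes (lower bar segment) and of 1 near-identical copy of each (upper segment), stacked by genotype, with error bars of 1 SD of the sum over 6 mice and axes that start at 0. For Hspa8 the copy Gm15459 takes 77.9% of the summed level in APOE2 and 0.230% in APOE4, and the sum is 139 against 250 CPM.

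Xaf1 had the smallest p of the increases other than predicted genes. It is an interferon-induced protein that antagonizes inhibitors of apoptosis. Xaf1 ran from 26.5 to 35.1 CPM in APOE2 (median 29.9) and from 5.47 to 7.20 CPM in APOE4 (median 6.04), with no overlap and a 4.87-fold higher level in APOE2 (a log2 difference of 2.28, SE 0.06, adjusted p = 3.71e-18). APOE3 mice were at the APOE4 level, with 5.68 ± 0.153 CPM. A gene close to it on chromosome 11, the ciliary tektin Tekt1 (from 72344722, where Xaf1 ends at 72313733), was also higher in APOE2 (4.08 to 5.44 against 2.23 to 2.73 CPM, log2 fold change 0.94, SE 0.10). Pla2g4e, a calcium-dependent enzyme that makes N-acyl phosphatidylethanolamines, the precursors of endocannabinoid-like lipids, ran from 60.3 to 77.5 CPM in APOE2 and from 6.92 to 16.4 CPM in APOE4 (2.51, SE 0.13), with APOE3 at 14.2 ± 1.51 CPM. Masp2, the protease that starts the lectin pathway of complement, ran from 2.81 to 5.37 CPM against 0.341 to 0.904 CPM (2.83, SE 0.19). Sytl1, a Rab27 effector that docks secretory vesicles, ran from 5.11 to 6.21 CPM against 1.21 to 1.52 CPM (1.94, SE 0.11). The sodium pump regulator Fxyd2 (1.86, SE 0.10), the perinatal myosin Myh8 (1.74, SE 0.16) and the ciliary protein Mns1 (1.61, SE 0.09) were higher in APOE2 too.

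Several scarce genes were also lower in APOE2, with APOE3 near the APOE4 level. The lens filament protein Bfsp2 ran from 0.123 to 0.421 CPM in APOE2 and from 2.60 to 4.61 CPM in APOE4 (log2 difference -3.81, SE 0.18), and APOE3 mice stood at 4.20 ± 0.298 CPM. Bub1b, a kinase of the mitotic spindle checkpoint, had -3.68 (SE 0.20), the mucosal chemokine Ccl28 -3.65 (SE 0.36), the CD30 receptor Tnfrsf8 -3.08 (SE 0.18) and the arachidonate lipoxygenase Alox8 -2.03 (SE 0.09). More abundant was Cryab, the small heat shock protein alphaB-crystallin of oligodendrocytes and astrocytes. It ran from 36.4 to 48.0 CPM in APOE2 (mean 43.9) and from 81.6 to 98.6 CPM in APOE4 (mean 89.3), with no overlap (-1.02, SE 0.07, adjusted p = 6.90e-11) and APOE3 at 83.8 ± 8.76 CPM. Cd59a, a membrane inhibitor of the complement attack complex, ran from 4.02 to 7.94 CPM against 11.4 to 14.4 CPM (-1.11, SE 0.09). Slc2a5, a fructose transporter that marks microglia in brain, ran from 1.15 to 1.90 CPM against 4.51 to 6.19 CPM (-1.87, SE 0.11, adjusted p = 7.87e-12).

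Called genes lay unevenly along the chromosomes. The share of tested genes that was called was 14.4% on chromosome 4 (164 of 1140), 15.6% on chromosome 9 (161 of 1034) and 8.38% on chromosome 11, beside 6.29% over all genes. In windows of 10 Mb, 17 held at least 20 tested genes with at least 15% of them called. They held 9.38% of the tested genes with a position and 33.2% of the called ones (387 of 1164). The densest were chromosome 4 from 140 to 150 Mb, with 55 of 110 genes called (24 higher, 31 lower), and chromosome 9 from 40 to 50 Mb, with 38 of 101 (13 higher, 25 lower). Both directions were present in these windows. Of the 24 largest changes, 11 lay in such windows, among them Masp2, Sytl1 and Tnfrsf8 on chromosome 4, Hspa8 and Fxyd2 on chromosome 9 and Pla2g4e, Bub1b and Eif3j1 on chromosome 2. Slc2a5 (from 150119283) and Eno1 (to 150248879) lie near each other on chromosome 4, just past the densest window. Cryab and Mns1 lie in other such windows of chromosome 9. Window membership is given below for some genes only, so a gene without it may lie in such a window. Inside the windows 22.1% of the tested genes were called, against 4.58% of those outside them. The windows were chosen for their share of these same calls, so this excess, and that of 33.2% over 9.38%, follows from that choice. Without the windows 831 called genes were left, 399 higher and 432 lower. On chromosome 6 from 0 to 10 Mb, where 10 of 40 genes were called, the autoantigen Ica1 (0.53, SE 0.04), the paraoxonase Pon2 (0.42, SE 0.06) and Umad1 (0.64, SE 0.08) were higher in APOE2, and APOE3 mice were near APOE2 for Ica1 (48.8 ± 1.59 CPM against a median of 48.2 in APOE2 and 32.9 in APOE4).

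**Figure D3:**
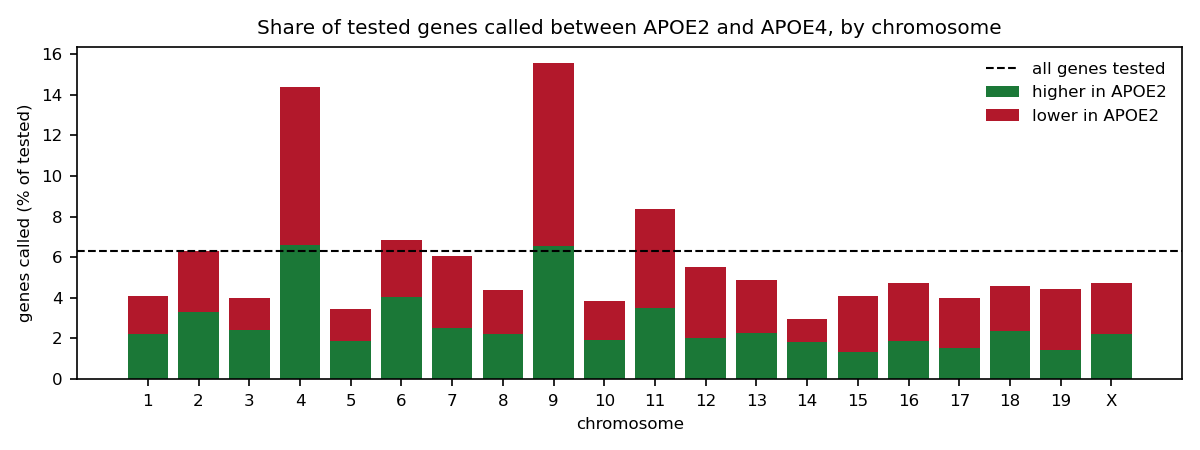
Percentage of tested genes on each chromosome that were called higher or lower in APOE2 than in APOE4, as stacked bars, with a dashed line at 6.29%, the share called over all genes. Chromosomes 4 and 9 stand highest, at 14.4% and 15.6% in both directions together, followed by chromosomes 11 (8.38%), 6 (6.87%) and 2 (6.33%), and chromosomes with under 20 tested genes are not drawn.

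Abundant neuronal genes differed by little. Among the called genes with the highest CPM, a scale without length correction, the synaptic vesicle SNARE Vamp2 ran from 1023 to 1153 CPM in APOE2 and from 937 to 977 CPM in APOE4, with no overlap (log2 fold change 0.16, SE 0.04, adjusted p = 0.00616). Cplx1, which clamps SNARE fusion, ran from 732 to 922 CPM against 637 to 717 CPM (0.25, SE 0.05), again with no overlap. Ywhae, a 14-3-3 adaptor protein, ran from 621 to 775 CPM against 560 to 628 CPM (0.26, SE 0.05), with overlap. The kinesin Kif5a (0.14), the CaMKII inhibitor Camk2n1 (0.19) and the apoptosis inhibitor Faim2 (0.13) were called higher and the APP-like protein Aplp1 (-0.16) lower. These 4 calls were lost when single libraries were left out: 8 for Kif5a (adjusted p up to 0.0927), 7 for Camk2n1 (0.0981), 14 for Faim2 (0.109) and 14 for Aplp1 (0.140). Of 18 neuronal markers, 0 were called by edgeR (5 at an unadjusted p under 0.05), 1 by DESeq2 and 0 by limma voom. Of 29 synapse genes 2 were called (6.90%, beside 6.29% of all genes), both higher. Vamp2, the more strongly called, lies in a described window of chromosome 11.

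**Figure D4:**
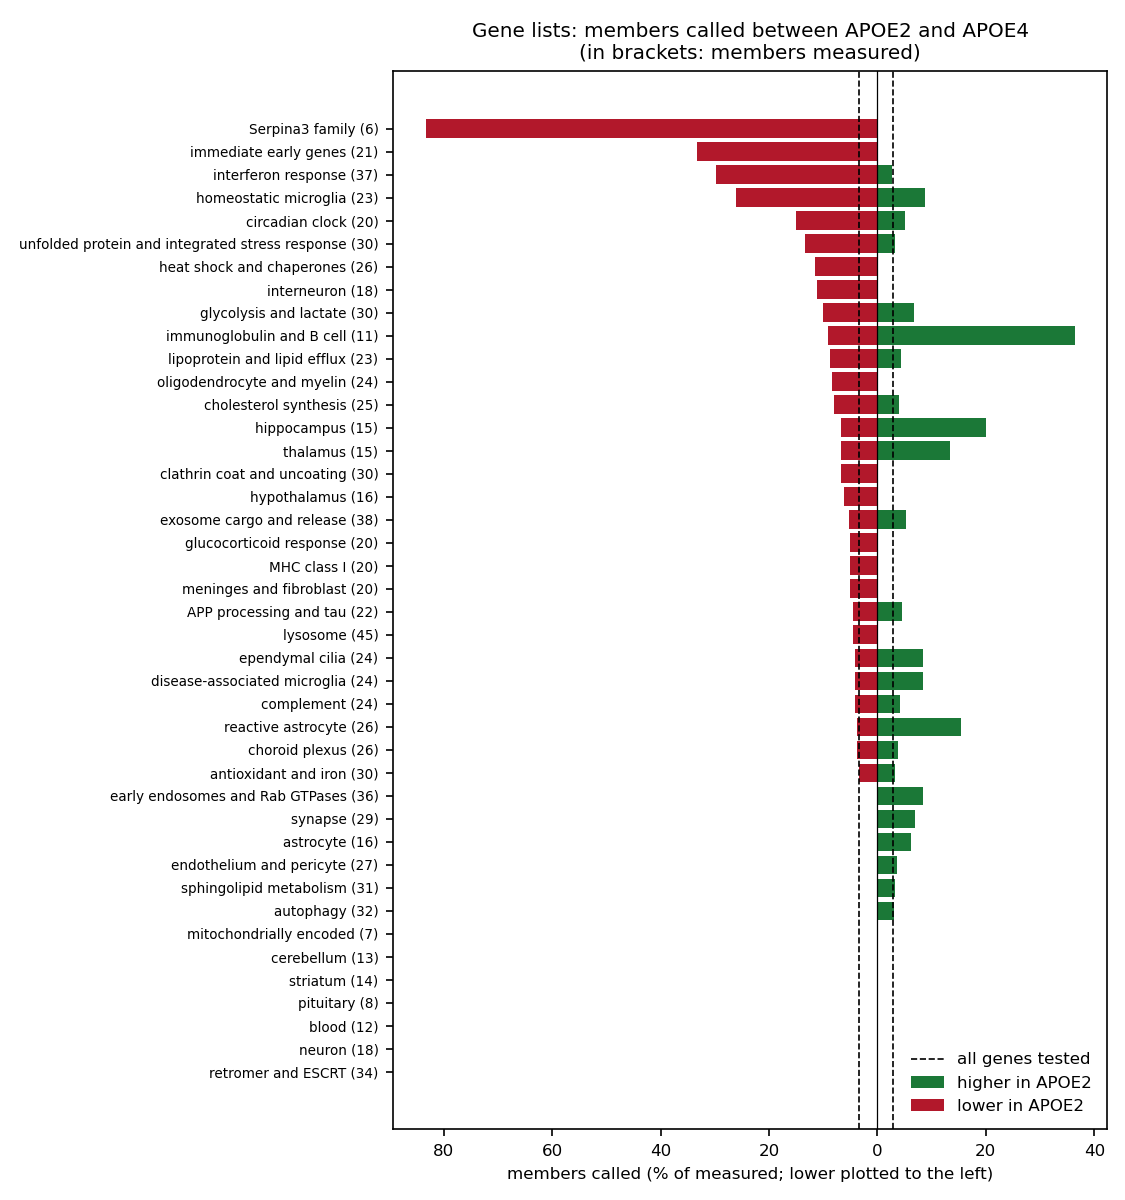
Percentage of the measured members of each gene list that were called higher or lower in APOE2 than in APOE4, with the number measured in parentheses and dashed lines at 2.94% and 3.36%, the shares of all tested genes called higher and lower. Serpina3 family, interferon response and immediate early genes have the greatest percentages lower.

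Interferon response genes held calls mainly in the lower direction. Interferons act through transcription factors such as IRF9, which bind response elements in promoters and turn on antiviral genes. Of 37 measured members 11 were called lower and 1, Xaf1, was called higher (32.4% in all, beside 6.29% of all genes), with a median log2 fold change of -0.28 beside 0.00 over all genes. Against a threshold of 1.2-fold (edgeR's glmTreat) 1 lower call was left, that of Igtp. Igtp lies in a described window of chromosome 11, and the other 10 lower calls lie outside such windows. The lower count was 7 without APOE4 replicate 6 and 13 at most when another library was left out. Igtp, a GTPase that guards vacuoles against parasites, ran from 1.73 to 5.20 CPM in APOE2 (median 2.04) and from 4.92 to 5.96 CPM in APOE4 (median 5.12), and only APOE2 replicate 6 reached the APOE4 range (-1.02, SE 0.20, adjusted p = 0.00243). Bst2, or tetherin, which holds budding virus and exosomes at the cell surface, ran from 1.81 to 3.16 CPM against 3.39 to 4.34 CPM, with no overlap (-0.56, SE 0.12, adjusted p = 0.00325). Oasl2, an antiviral oligoadenylate synthetase, ran from 2.57 to 4.06 CPM against 4.28 to 7.42 CPM, with no overlap (-0.71, SE 0.15). Ifi27, a mitochondrial protein induced by interferon, ran from 24.0 to 30.2 CPM against 29.3 to 36.4 CPM, and the groups overlapped (-0.27, SE 0.06). The other lower calls, named after their values were seen, were Lgals3bp, Parp14, Irgm1, Oas2, Ifi44, Usp18 and Irf9, with log2 fold changes from -0.91 for Ifi44 to -0.28 for Irf9. Of these, Oas2 was not called without APOE4 replicate 6 (adjusted p = 0.0508). Ifi44 was not called without replicate 1 or 3 of APOE2 or 3 or 6 of APOE4 (up to 0.0822), nor Usp18 without replicate 1, 3 or 4 of APOE2 or 6 of APOE4 (up to 0.0672), nor Irf9 without any 1 of 7 libraries (up to 0.0974). APOE3 mice were nearer to APOE4 for Igtp (5.61 ± 0.569 CPM) and nearer to APOE2 for Bst2 (2.87 ± 0.407 CPM). Summed homeostatic microglia markers overlapped, at 668 to 754 CPM in APOE2 and 673 to 757 in APOE4. In bulk tissue, fewer cells of a type and less RNA per cell cannot be told apart.

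The promoters of called interferon genes are shown for the response element that defines the pathway. RefSeq promoters (GRCm38.p6, 250 bases before to 50 after the start) were searched on both strands for GAAANNGAAA, the core of that element, where neighbouring matches may overlap. It was present in 942 of 27025 promoters (3.49%), in 18 of 27 measured interferon genes with a promoter in the table (66.7%), in 3 of the 7 of these called lower (42.9%) and in 15 of the 20 not called lower (75.0%). The stretches around the matches of those 3 genes follow, with the matched bases in capitals. Igtp (chr11:58199492-58199561, plus strand) holds 1 match 34 to 25 bases before the start, Irgm1 (chr11:48871405-48871480, minus strand) 2 overlapping matches 30 to 15 bases before it, and Bst2 (chr8:71537557-71537632, minus strand) 2 overlapping matches 130 to 115 bases before it.
Igtp: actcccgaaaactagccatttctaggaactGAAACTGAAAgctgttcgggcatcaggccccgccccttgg
Irgm1: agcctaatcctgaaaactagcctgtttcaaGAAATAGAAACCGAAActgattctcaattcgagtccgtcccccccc
Bst2: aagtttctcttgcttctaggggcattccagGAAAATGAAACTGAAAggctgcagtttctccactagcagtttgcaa
The promoters of Xaf1, Oasl2, Ifi44, Irf9 and Lgals3bp hold no match in this window.

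Immediate early genes are those that neurons transcribe within minutes of strong activity. Of 21 members 7 were called, all lower in APOE2 (33.3%, beside 3.36% of all genes called lower), with a median log2 fold change of -0.74. Negative values were held by 20 of 21, beside 9419 of 19352 genes over all. Egr1, a zinc finger factor induced by synaptic activity, ran from 86.5 to 181 CPM in APOE2 (median 148) and from 211 to 372 CPM in APOE4 (median 250), with no overlap (-0.95, SE 0.21, adjusted p = 0.0112). Dusp5, a phosphatase of ERK kinase, ran from 6.27 to 9.75 CPM against 9.40 to 18.3 CPM (-0.75, SE 0.17, adjusted p = 0.0120). Egr4 ran from 9.23 to 15.6 CPM against 13.9 to 42.9 CPM (-1.10, SE 0.26, adjusted p = 0.0178, and 0.0550 without APOE4 replicate 1). The nuclear receptor Nr4a1 ran from 31.9 to 68.8 CPM against 52.9 to 142 CPM (-1.35, SE 0.35, adjusted p = 0.0332). Egr2, Fosb and Klf4, named after their values were seen, made up the 7. The count fell to 2 without APOE4 replicate 1, to 3 without APOE2 replicate 1, 2 or 4 or APOE4 replicate 4 or 6, and to 4 without APOE2 replicate 3 or 5. Without any 1 of those 8 libraries the calls of Nr4a1 (adjusted p up to 0.0828) and Egr2 (up to 0.102) were lost, and 10 libraries ended that of Fosb (up to 0.108) and 6 that of Klf4 (up to 0.114). The spread between APOE4 mice is wide in the heat map of these genes. APOE3 mice were in between or near APOE4, with 227 ± 71.2 CPM of Egr1 and 89.3 ± 47.2 CPM of Nr4a1. DESeq2 and limma voom each called 10 members, and glmTreat against 1.2-fold called 0 of them.

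**Figure D5:**
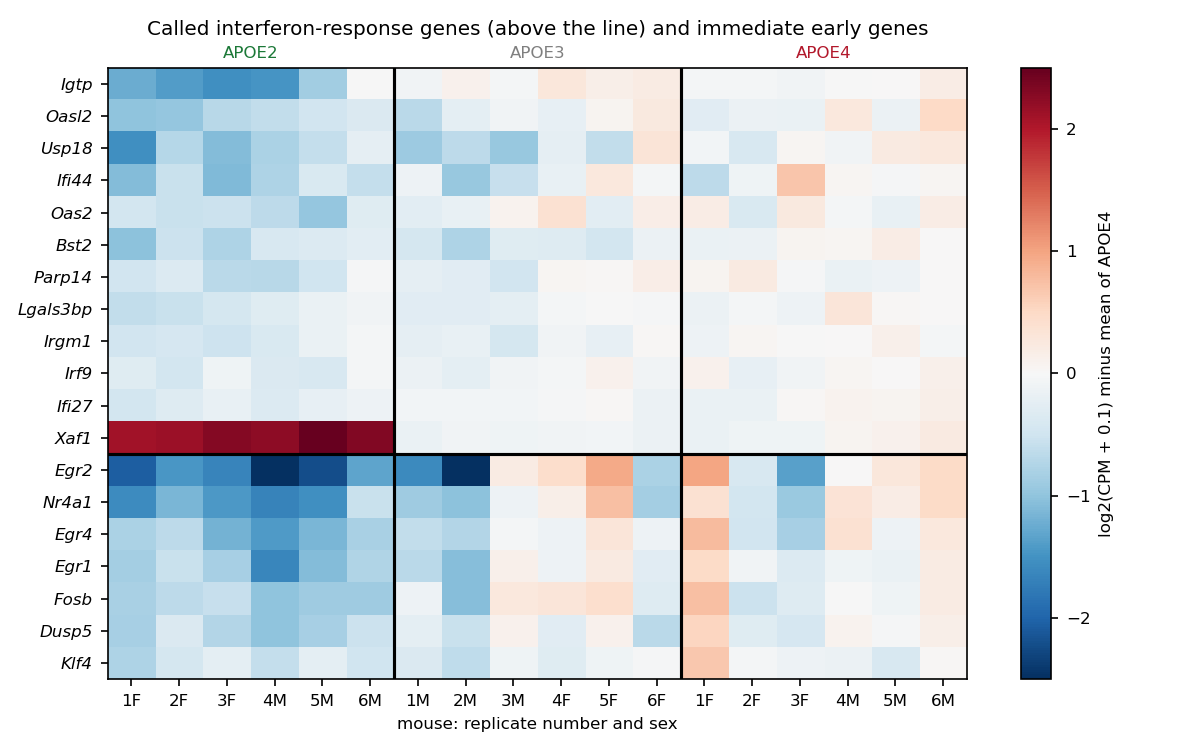
Heat map of log2(CPM + 0.1) minus the APOE4 mean for called interferon response and immediate early genes (rows) in each APOE2, APOE3 and APOE4 mouse (columns), with a colour scale in log2 units. APOE2 mice are below the APOE4 mean for most members apart from Xaf1, and APOE2 replicate 6 has Igtp at the APOE4 level.

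Microglial genes moved in both directions. Of 23 genes of homeostatic microglia, the resident phagocytes of the brain, 6 were called lower and 2 higher in APOE2 (34.8%, beside 6.29% of all genes), with a median of -0.03. The count of called members fell to 5 without APOE2 replicate 1, 3 or 5 or APOE4 replicate 2, 4 or 6. Besides Slc2a5, Selplg, the ligand of P-selectin, ran from 20.1 to 23.4 CPM in APOE2 and from 25.9 to 32.8 CPM in APOE4, with no overlap (-0.40, SE 0.06, adjusted p = 4.24e-05). The lysosomal membrane protein Laptm5 ran from 26.2 to 30.6 CPM against 31.6 to 39.9 CPM, with no overlap (-0.28, SE 0.06, adjusted p = 0.00253). It lies in a described window of chromosome 4. Fcrls, an Fc receptor-like protein, ran the other way, from 17.9 to 26.6 CPM against 14.9 to 20.5 CPM, and overlapped (0.33, SE 0.07, adjusted p = 0.00236). Of 24 genes of disease-associated microglia, a state of phagocytes around plaques, 2 were higher, the integrin Itgax (0.883 to 1.56 against 0.446 to 0.830 CPM, 0.95, SE 0.16, adjusted p = 3.51e-04) and the beta-glucan receptor Clec7a (0.85, SE 0.21, adjusted p = 0.0130). The third call was B2m, the light chain of MHC class I, which was lower (-0.33, SE 0.08, adjusted p = 0.0206, and up to 0.0526 without APOE2 replicate 1, 3 or 4). It lies in a described window of chromosome 2, near Eif3j1. These 3 calls made up 12.5% of the disease-associated list, beside 6.29% of all genes.

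Reactive astrocyte genes split as well. Gfap, the filament of astrocytes that rises in gliosis, ran from 218 to 294 CPM in APOE2 (median 258) and from 179 to 226 CPM in APOE4 (median 192), and the groups overlapped (log2 fold change 0.38, SE 0.08, adjusted p = 0.00435). Cd109, a surface protein that binds TGF-beta, ran from 3.29 to 4.98 CPM against 2.15 to 3.22 CPM, with no overlap (0.55, SE 0.12, adjusted p = 0.00318). It lies in a described window of chromosome 9. With Serpina3n lower, 4 of 26 members were called higher and 1 lower (19.2% in all, beside 6.29% of all genes). The other higher calls were Igfbp5 (0.17, SE 0.05) and Lcn2, where APOE2 replicate 2 alone reached 2.36 CPM against at most 0.452 CPM in any other APOE2 mouse, and these calls were lost without any 1 of 7 libraries (adjusted p up to 0.0801) and of 6 libraries (up to 0.101). The total fell to 3 without APOE2 replicate 4 or APOE4 replicate 3, 4 or 6. Summed levels of 16 astrocyte markers were 6765 to 7861 CPM in APOE2 and 6244 to 7670 CPM in APOE4. Gfap was the 1 astrocyte marker called (6.25%, beside 6.29% of all genes). Complement genes were called in 2 of 24 (8.33%, beside 6.29% of all genes), Masp2 higher and Cd59a lower, with 4 called without APOE2 replicate 1.

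Endosomes and exosomes are named in the series title, and the calls in their lists are set beside 6.29% of all genes called. Of 36 early endosome and Rab genes 3 were called (8.33%), all higher: Wdfy1, the recycling GTPase Rab4a and the Rab5 effector Rabep1. Rab4a ran from 35.3 to 43.2 CPM in APOE2 and from 29.2 to 34.9 CPM in APOE4, with no overlap (0.30, SE 0.05, adjusted p = 1.43e-04), and APOE3 mice stood at 33.5 ± 0.714 CPM. Rabep1 ran from 159 to 195 CPM against 135 to 167 CPM, with overlap (0.22, SE 0.05, adjusted p = 0.00410). Of 38 genes of exosome cargo and release 4 were called (10.5%): Sytl1 and its relative Sytl4 (0.54, SE 0.16, adjusted p = 0.0432) higher, and Hspa8 and the membrane-binding annexin Anxa6 (93.4 to 111 against 107 to 122 CPM, -0.19, SE 0.04, adjusted p = 0.00661) lower. Sytl4 was not called without any 1 of 13 libraries (adjusted p up to 0.106). Sytl1, Hspa8 and Anxa6 lie in described windows, which were chosen for a high share of calls (22.1% inside them). So 1 call, that of Sytl4, lies outside them. The level of Hspa8 is uncertain because of its copy. For the 34 genes of the retromer and ESCRT, which sort endosome cargo, the number called was 0 by edgeR (11 at an unadjusted p under 0.05), 1 by DESeq2 and 0 by limma voom. Without APOE4 replicate 5 edgeR called 6 of them, without APOE2 replicate 6 it called 3 and without APOE4 replicate 2 it called 1, all higher in APOE2. Positive values were held by 28 of the 34, beside 9933 of 19352 genes over all.

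Among the routes of uptake and degradation, the share called was 4.44% for lysosomal, 6.67% for clathrin coat and 3.12% for autophagy genes, beside 6.29% of all genes. Of 45 lysosomal genes 2 were called, Laptm5 and the beta-galactosidase Glb1 (20.3 ± 0.959 against 24.4 ± 1.34 CPM, SD, with no overlap, -0.27, SE 0.05, adjusted p = 9.10e-04), both lower, and 4 without APOE4 replicate 5. Of 30 genes of clathrin coats 2 were called, both lower, and 4 were called without APOE4 replicate 5. The 2 were Hspa8, uncertain because of its copy, and the lipid phosphatase Synj2 (89.9 to 108 against 111 to 141 CPM, with no overlap, -0.32, SE 0.06, adjusted p = 0.00178). Of 32 autophagy genes the 1 call was Atg10, a conjugating enzyme of the autophagosome membrane (0.29, SE 0.08, adjusted p = 0.0275), which was lost without APOE2 replicate 1, 2 or 5 or APOE4 replicate 3 or 4, with adjusted p up to 0.0822. The median log2 fold changes of the endosome, exosome, lysosome, clathrin and autophagy lists lay between -0.02 and 0.06.

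Lipid genes held calls in both directions. Of 25 cholesterol synthesis genes 3 were called, 1 higher and 2 lower. Negative values were held by 19 of the 25, beside 9419 of 19352 genes over all. The desaturase Sc5d (57.4 to 66.0 against 66.4 to 85.4 CPM, with no overlap, -0.38, SE 0.05, adjusted p = 1.84e-05) was lower. Hmgcs1, a synthase early in the pathway, was higher (0.23, SE 0.07, adjusted p = 0.0341), a call lost without any 1 of 8 libraries (adjusted p up to 0.0935). Hmgcs1 lies on chromosome 13 near Ccl28, in a described window, and Sc5d lies in a described window of chromosome 9. The other lower call lies outside the described windows. Of 23 lipoprotein and efflux genes 3 were called (1 higher and 2 lower), and 1 without APOE4 replicate 1. The transporter Abca8a was higher (0.31, SE 0.08, adjusted p = 0.0159) and the sterol transporter Abcg4 lower (-0.21, SE 0.05, adjusted p = 0.0224, and up to 0.0740 when APOE2 replicate 2 or 5 or APOE4 replicate 1, 3 or 4 was left out). Abcg4 lies in a described window of chromosome 9. Sptlc2, a subunit of the enzyme that starts sphingolipid synthesis, was higher (0.18, SE 0.04, adjusted p = 0.00497), the 1 call of 31 sphingolipid genes. Among 22 genes of APP processing and tau, neprilysin (Mme), which degrades amyloid-beta, stood at 23.8 ± 1.18 CPM against 19.1 ± 2.49 CPM (SD, n = 6; 0.32, SE 0.07, adjusted p = 0.00265), and the other call was Aplp1.

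Stress and metabolic genes were led by a few members. Atf4, the factor of the integrated stress response, ran from 86.5 to 105 CPM in APOE2 (median 97.1) and from 125 to 143 CPM in APOE4 (median 128), with no overlap (-0.45, SE 0.05, adjusted p = 9.43e-07), and APOE3 mice stood at 100 ± 4.13 CPM. Its target Sesn2, a regulator of mTORC1 that lies in a described window of chromosome 4, stood at 12.4 ± 1.14 CPM against 16.5 ± 1.18 CPM (SD, n = 6), with no overlap (-0.41, SE 0.07, adjusted p = 1.91e-04). The other 3 of 5 calls among 30 genes of this response were Asns (-0.15), Atf3 (-0.81) and, in the other direction, Ddit3 (0.17), each lost without any 1 of 9, 12 and 16 libraries (adjusted p up to 0.0947, 0.160 and 0.132). Only 2 calls were left without APOE2 replicate 3 or APOE4 replicate 1. Among 26 chaperones the lower calls were Hspa8 (uncertain because of its copy), Cryab and Dnajb5 (-0.37, SE 0.11, adjusted p = 0.0474). The call of Dnajb5 was lost without any 1 of 12 libraries (adjusted p up to 0.124). Among 30 glycolysis genes Eno1, the pyruvate kinase Pkm (501 to 610 against 634 to 733 CPM, with no overlap, -0.27, SE 0.05, adjusted p = 4.24e-04) and the pyruvate dehydrogenase kinase Pdk4 (-0.77, SE 0.16, adjusted p = 0.00616) were lower. Eno1b and the lactate dehydrogenase Ldhd (0.27, SE 0.06, adjusted p = 0.00849) were called higher. The split of reads between Eno1 and Eno1b is uncertain, and their sum with Gm5855 was lower (-1.19, SE 0.05). Pkm and Pdk4 lie in described windows. Clock genes had 4 calls of 20, Rora higher and Bhlhe40, Csnk1d and Nfil3 lower, and this count ran from 0 without APOE2 replicate 1 or 5 or APOE4 replicate 4 to 7 without APOE4 replicate 5.

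Markers of tissue that dissection can include were compared because a hemibrain mixes regions. Of 26 choroid plexus genes 1 was higher, Calml4 (0.64, SE 0.16, adjusted p = 0.0162), and 1 lower, Tmem72 (-0.95, SE 0.23, adjusted p = 0.0193, and 0.0529 without APOE2 replicate 2), with a median of 0.20 and summed levels of 1041 to 2107 CPM against 1051 to 1613 CPM. Calls in this list numbered 4 without APOE4 replicate 5. Ependymal genes had 3 calls of 24: Tekt1 and Mns1 higher and Ccdc153 lower (1.69 to 2.34 against 2.76 to 4.55 CPM, with no overlap, -1.01, SE 0.12, adjusted p = 1.26e-06), and Ccdc153 lies in the chromosome 9 window of Hspa8. Hippocampal markers had 4 calls of 15, 3 higher and 1 lower. The lower call was Spink8, a pyramidal cell gene (-0.90, SE 0.17, adjusted p = 0.00123). Dsp, a granule cell gene, was among the higher calls (0.55, SE 0.13, adjusted p = 0.0132). Without APOE4 replicate 6 the hippocampal list had 2 calls. Thalamic markers had 3 calls of 15, 2 higher and 1 lower. The most strongly called was Tnnt1, which was lower (-0.63, adjusted p = 6.80e-04). The kinase Prkcd was higher (81.6 to 140 against 71.5 to 82.9 CPM, 0.46, SE 0.10, adjusted p = 0.00623). The other higher call, Rora (0.40, adjusted p = 0.0304), was lost without any 1 of 8 libraries (adjusted p up to 0.0825). Positive values were held by 14 of 15 members (median 0.14), beside 9933 of 19352 genes over all. The count of called thalamic markers rose to 6 without APOE2 replicate 3 or APOE4 replicate 5 and to 5 without APOE2 replicate 6. Interneuron markers had 2 of 18, both lower and both in described windows: the serotonin receptor Htr3a (3.39 to 4.93 against 5.62 to 7.62 CPM, with no overlap, -0.66, SE 0.08, adjusted p = 6.36e-06) and the peptide cortistatin (Cort; -0.70, SE 0.15, adjusted p = 0.00524). Without APOE2 replicate 1 there were 4. Oligodendrocyte markers had 2 of 24, both lower, among them transferrin (Trf; -0.45, SE 0.10, adjusted p = 0.00723), while summed levels were 7227 to 9461 CPM against 6878 to 8251 CPM. Blood genes had higher values in APOE2 in 11 of 12, beside 9933 of 19352 genes over all, with a median of 0.72. The number of blood genes called was 0 by edgeR (8 at an unadjusted p under 0.05), 3 by DESeq2 and 1 by limma voom. Beta-globin (Hbb-bs) ran from 39.8 to 125 CPM in APOE2 and from 29.8 to 50.1 CPM in APOE4. The part of blood in the immunoglobulin values above was not tested.

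The comparison was also made within each sex. In females the test called 552 genes (2.85%), of which 232 were higher in APOE2, and in males 461 (2.38%), of which 215 were higher. The difference between the sexes was itself tested. It gave 0 genes by edgeR (522 at an unadjusted p under 0.05), 0 by limma voom and 1 by DESeq2, Gm24601, annotated as a ribosomal RNA. Its log2 fold change was 1.24 in females and -0.91 in males (adjusted p = 0.210 in edgeR). Next in order were Dsp, with 0.15 in females and 0.99 in males, the tRNA-modifying enzyme Cdk5rap1, with -0.92 and -0.36, and the protease inhibitor A2m, with 0.83 and 0.01, none of which was called for the difference. Among large changes, Serpina3n had -2.64 in females and -2.74 in males, and Xaf1 had 2.33 and 2.24. Values lay further apart for Eps8l1, with -4.33 in females and -3.25 in males, a difference that edgeR did not call after adjustment (unadjusted p = 0.00554).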

How the data were processed

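Stranded polyA RNA-seq libraries of 18 hemibrains, 1 per mouse, were assigned to genotype and sex from the labels, and replicate numbers, given in accession order, are names only. The deposited table holds raw counts of reads for each gene symbol. Per the submitters' processing notes, reads were processed with Trimmomatic, FastQC, STAR 2.7.0, featureCounts and DESeq2 on GRCm38/mm10; no annotation release, strand setting or DESeq2 model is given in the sources used. The deposited comparison of APOE2 with APOE4 gives, per the file headers, a mean normalized signal, a log2 fold change with its standard error, a Wald score, a p-value and an adjusted p-value.

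Of 52459 symbols, 26 had been turned into dates (0.304% to 0.322% of a library's counts) and were left out. Positions come from the GENCODE mouse release 21 annotation, where 47976 symbols (91.5%) matched a single gene. Counts were tested with edgeR 4.0.16 (R 4.3.3): TMM, filterByExpr by genotype and sex, robust quasi-likelihood F test, 18 libraries in 1 additive model of genotype and sex, 19352 genes, Benjamini-Hochberg adjusted p under 0.05. Within-sex contrasts and the interaction came from 1 mean per genotype and sex. The biological coefficient of variation was 0.085, and pairs of replicates differed beyond counting noise (chi-square per degree of freedom 5.37 to 42.4). The authors' deposited table gives 20842 genes an adjusted p, of which 1502 were under 0.05 (705 higher, 797 lower); 1200 of the 1218 edgeR calls were among them in the same direction and 0 in the other.

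Levels are CPM after TMM scaling. Intervals of read ratios and the floor of 3 reads cover counting error only. Copies were found with blastn 2.17.0 between annotated transcripts (at least 90% identity over at least 300 bases and 50% of the shorter transcript). Counts of copies with enough reads, at loci that do not overlap the gene, were summed with the gene's. Alternatives were DESeq2 size factors, upper-quartile factors, no filter, a minimum of 1 CPM in 6 libraries, limma voom (limma 3.58.1), DESeq2 1.42.0, no sex term, the 12 libraries alone, glmTreat against 1.2-fold, an adjusted p under 0.01, windows left out, and each library left out. The fit was tested on simulated data. Named genes are the 12 largest increases and decreases among called genes of at least 1 CPM without predicted genes, the 8 most abundant called genes, up to 4 members per list and 3 per window by smallest p, 6 genes by interaction p, and Apoe. Members, lists and rules were chosen with earlier results of these data known. Not every gene taken by this rule is described, and some are not reported here.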

Additional observations from a re-analysis of the deposited data

Results flagged for a closer look

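In 24 of 268 groups of 6 mice, 1 mouse lay far from the others, with a gap to its neighbour beyond Dixon's 95% critical value for 6 samples. Chance gives about 1 in 20 groups. In APOE2 replicate 2 the high values were Serpina3f at 0.137 CPM, Eif3j2 at 5.89, Tmem119 at 23.7, Lcn2 at 2.36 and Spink8 at 2.52 CPM. In APOE2 replicate 4 they were Ptprh at 0.404, Erdr1 at 0.0168, Gh at 3.03 and Prl at 1.21 CPM. APOE2 replicate 6 had Igtp at 5.20 CPM, against 1.73 to 2.81 in the other APOE2 mice, Serpina3m at 0.0196 CPM (1 read) and a low Umad1 at 33.7 CPM. APOE2 replicate 1 was low for Sesn2 at 10.1 CPM, and APOE2 replicate 3 was high for Sytl1 at 6.21 CPM.

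Among APOE4 mice, replicate 5 had the pituitary hormones Gh at 132 CPM and Prl at 29.2 CPM, against at most 13.8 and 1.83 CPM in the others, and Ica1 at 36.0 CPM. APOE4 replicate 1 was high for Klf4 at 7.75, Pdk4 at 31.7 and the clock repressor Bhlhe40 at 205 CPM. APOE4 replicate 4 was high for Apoe at 54.2 and Lgals3bp at 30.5 CPM, replicate 2 for Kif5a at 2931 CPM and replicate 6 for Igtp at 5.96 CPM.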

How the results depend on the processing

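Of the 1218 called genes (568 higher, 650 lower), glmTreat against 1.2-fold left 355 (158 and 197) and an adjusted p under 0.01 left 690 (311 and 379). Leaving out the described windows left 432 lower genes. Leaving out 1 library gave 943 to 1859 calls (441 to 968 higher, 502 to 891 lower); the highest, 1859 (968 higher and 891 lower), was without APOE4 replicate 5. Other settings gave 938 (the 12 libraries alone) to 1546 (DESeq2). With upper-quartile factors 41.0% of calls were higher in APOE2 (511 of 1246), against 46.6% with TMM. The sex interaction had 0 calls in edgeR and limma voom and 1 in DESeq2. No paired analysis was possible because replicate numbers are in accession order and pair no mice. Summed with their copies, Eno1b (-1.19) and Eif3j2 (-0.31) reversed and Eif5al3-ps (-0.04, SE 0.05) was no longer called, since the sum takes in the gene they copy. Of 126 called genes followed, 52 kept their call in all alternatives, 74 lost it under glmTreat, 37 when 1 library was left out, 22 with 12 libraries, 4 in limma voom and 0 in DESeq2. The causes were not tested. Depth limits the Serpina3m, Serpina3k, Erdr1 and Zfp990 ratios, each with at most 12 reads in 1 group.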
